A study of Mus musculus with 6 samples.

Results

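The outer layer of a keratinizing epithelium is built from a cornified envelope, a sheet of cross-linked protein that replaces the plasma membrane, from lipids that fill the space around the dead cells, and from proteases and inhibitors that time their shedding. Transglutaminases join precursors such as involucrin and loricrin to a scaffold of plakins, and lipoxygenases, ceramide synthases and the ABCA12 transporter supply and process the ceramides that are bound to it. The skin carries the complete apparatus, whereas the corneal epithelium is a stratified, non-keratinized epithelium that normally stays moist and transparent. The 36 genes described here were listed by name for their roles in the cornified envelope, in barrier lipids and in desquamation, leaving out the small proline-rich proteins and the keratins. The rule names genes and sets no threshold on a measured value, but the list was drawn up with earlier results of these data known.

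Bulk RNA-seq was performed on 3 corneal epithelium samples of control mice, labelled wild type, and 3 of *Krt14-Cre; Rela f/f* mice, labelled Rela-/-, all of the C57BL/6 strain and 2 months of age. *Rela* encodes the RelA subunit of canonical NF-κB, and *Krt14-Cre* deletes it in cells that express keratin 14, which by the lineage tracing of the study include the epithelium of the cornea, limbus, conjunctiva and skin, so that the mutant is not a model of the cornea alone. Whether the control mice carried the floxed allele or the Cre transgene is not given in the sources used here. Each sample held between 19492942 and 19733834 expected counts, so that 3 counts correspond to 0.152 to 0.154 CPM (counts scaled to sequencing depth). The *Rela* level was 36.47, 34.71 and 33.43 FPKM (fragments scaled to transcript length and sequencing depth) in controls, against 4.93, 5.53 and 5.72 FPKM in mutants, a log2 fold change of −2.75 ± 0.085 (SE).

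Of the 36 genes, 35 had a row among the 17554 genes of the table, and the expression of *Klk5* was not analysed here. A total of 28 of them had enough counts to be tested with edgeR, and 17 of these were higher in the mutant at a Benjamini-Hochberg adjusted p under 0.05, which is the meaning of "rose" throughout. No member fell. In tissue samples of this kind more RNA per cell and more cells that express a gene cannot be told apart. At an unadjusted p under 0.05 the counts were 17 higher and 1 lower, and DESeq2 called 17 higher and 1 lower, in both cases with *Evpl* as the lower gene. Over all 12667 genes tested, 7.82% were higher and 5.42% were lower, against 60.7% of the tested members higher, a comparison that is not independent of how the list was chosen. A total of 11 members also met the thresholds of the methods of the study, an adjusted p of at most 0.001 with a change of at least 2-fold, against 1.31% of all genes called higher in this way. The median log2 fold change of the 28 members was 1.39, and that of all genes tested was −0.003.

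A filter on low counts favours genes that are low in one group and high in the other, and 6 of the tested members had under 10 counts in at least 1 control sample. Among the 22 members with at least 10 counts in every sample, 12 rose (54.5%) with a median log2 fold change of 0.82, against 7.34% of all genes that met this condition. In 17 of the 28 tested members every mutant sample lay above every control sample, against 17.2% of all genes tested.

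**Figure D1:**
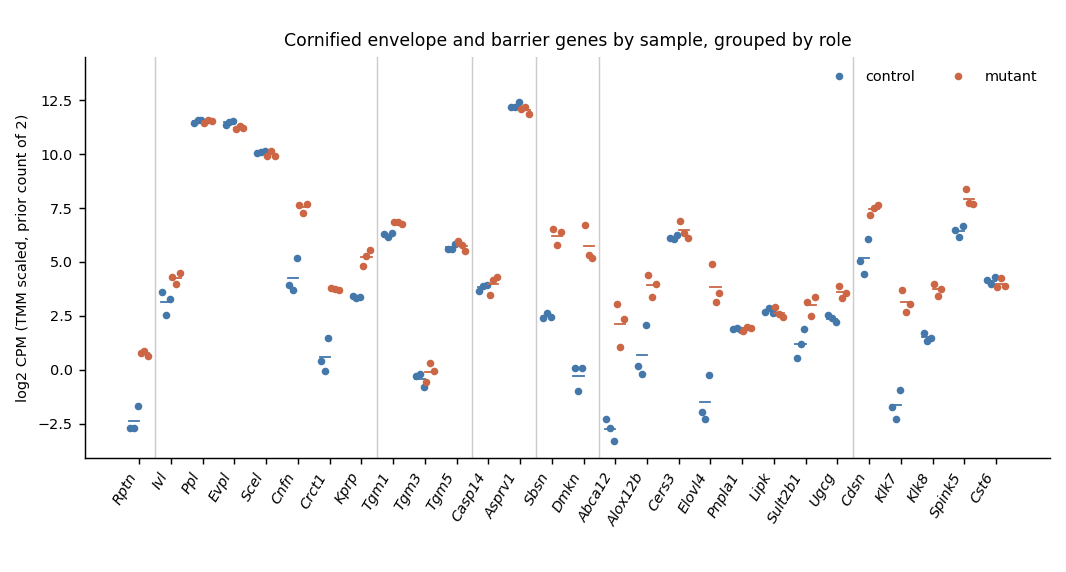
Level of the 28 tested members in each of the 6 samples, in log2 CPM scaled by TMM with a prior count of 2. Points are samples, with 3 control samples in blue and 3 mutant samples in orange, horizontal lines are group means, and vertical lines separate the role groups; *Asprv1*, *Ppl*, *Evpl* and *Scel* are the highest genes and their groups lie close together, while *Dmkn*, *Abca12*, *Elovl4* and *Klk7* show the widest separation.

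The promoters of a few members are shown first. RefSeq promoter windows of 300 bases, from 250 before to 50 after the transcription start, were at hand for 28 of the members, *Klk5* included, and were searched on both strands for the AP-1 letters TGANTCA and for the core letters of an NF-κB site, GGANTTTCC. The AP-1 letters occurred in 10 of the 28 members, against 8.97% of 27025 genes with a window. The 10 members were *Sbsn*, *Dmkn*, *Krtdap*, *Ivl*, *Lor*, *Rptn*, *Sult2b1*, *Scel*, *Flg* and *Flg2*. N stands for any base, and the match was TGAATCA in *Flg*, in *Flg2* and at −119 of *Sbsn*, and TGATTCA in *Rptn*. The other matches were TGAGTCA or TGACTCA. The letters were in 5 of the 14 members with a window that rose, in 1 of 7 that were tested and did not pass, in 4 of 6 below the count filter, and not in the window of *Klk5*. The NF-κB letters occurred in 1 member, *Cnfn*, against 1.45% of all genes. These matches describe letters in a window and no binding was measured in these samples.

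The windows of *Sbsn*, *Dmkn* and *Krtdap*, which lie side by side on chromosome 7, those of *Ivl* and *Lor*, a pair of envelope precursors on chromosome 3 of which one was expressed and the other was close to absent, and that of *Cnfn* are given below from the build GRCm38.p6, 5′ to 3′ on the strand of the gene. Capitals mark the AP-1 letters, or the NF-κB letters in *Cnfn*.
Sbsn, chr7:30751221-30751520, plus strand: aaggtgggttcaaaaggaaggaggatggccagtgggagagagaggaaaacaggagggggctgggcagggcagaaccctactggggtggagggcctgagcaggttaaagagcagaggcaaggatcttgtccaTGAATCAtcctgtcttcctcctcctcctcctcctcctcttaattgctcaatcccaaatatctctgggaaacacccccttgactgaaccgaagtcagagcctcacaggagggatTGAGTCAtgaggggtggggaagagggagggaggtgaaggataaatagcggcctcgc
Dmkn, upstream start, chr7:30763506-30763805, plus strand: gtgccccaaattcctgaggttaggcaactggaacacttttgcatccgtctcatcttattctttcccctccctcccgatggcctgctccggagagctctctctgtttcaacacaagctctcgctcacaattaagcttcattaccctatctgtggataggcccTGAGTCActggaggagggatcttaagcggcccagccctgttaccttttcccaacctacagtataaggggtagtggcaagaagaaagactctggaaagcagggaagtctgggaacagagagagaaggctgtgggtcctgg
Dmkn, internal start, chr7:30776155-30776454, plus strand: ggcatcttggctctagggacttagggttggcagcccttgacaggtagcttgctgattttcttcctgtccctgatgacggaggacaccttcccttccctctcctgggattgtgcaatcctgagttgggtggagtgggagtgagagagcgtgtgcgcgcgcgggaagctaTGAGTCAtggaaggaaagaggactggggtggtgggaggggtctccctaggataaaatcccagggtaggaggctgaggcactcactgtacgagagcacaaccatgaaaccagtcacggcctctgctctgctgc
Krtdap, chr7:30787655-30787954, plus strand: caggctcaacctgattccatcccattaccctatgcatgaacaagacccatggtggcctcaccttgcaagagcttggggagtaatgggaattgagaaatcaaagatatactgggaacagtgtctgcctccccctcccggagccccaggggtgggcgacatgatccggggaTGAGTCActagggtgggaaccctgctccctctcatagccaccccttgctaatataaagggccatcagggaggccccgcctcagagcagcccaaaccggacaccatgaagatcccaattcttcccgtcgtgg
Ivl, chr3:92573686-92573985, minus strand: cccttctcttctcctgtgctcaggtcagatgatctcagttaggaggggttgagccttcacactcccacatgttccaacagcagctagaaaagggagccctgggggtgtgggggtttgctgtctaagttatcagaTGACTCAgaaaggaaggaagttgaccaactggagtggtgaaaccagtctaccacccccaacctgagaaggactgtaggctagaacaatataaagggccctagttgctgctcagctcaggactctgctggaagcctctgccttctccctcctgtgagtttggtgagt
Lor, chr3:92083093-92083392, minus strand: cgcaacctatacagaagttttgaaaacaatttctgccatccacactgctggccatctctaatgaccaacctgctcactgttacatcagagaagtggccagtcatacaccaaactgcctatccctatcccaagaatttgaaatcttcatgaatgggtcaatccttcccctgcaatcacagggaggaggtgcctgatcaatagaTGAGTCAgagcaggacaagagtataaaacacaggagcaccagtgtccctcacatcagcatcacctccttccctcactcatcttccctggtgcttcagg
Cnfn, chr7:25369675-25369974, minus strand: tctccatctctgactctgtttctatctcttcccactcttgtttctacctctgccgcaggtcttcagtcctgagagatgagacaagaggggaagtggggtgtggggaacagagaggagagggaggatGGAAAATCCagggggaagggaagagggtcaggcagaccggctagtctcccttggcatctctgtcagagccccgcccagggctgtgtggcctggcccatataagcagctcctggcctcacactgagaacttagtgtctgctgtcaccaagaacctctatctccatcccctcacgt

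Counted from the transcription start, the AP-1 letters began at −119 and −6 in *Sbsn*, at −89 and −82 in the *Dmkn* windows printed, at −81 in *Krtdap*, at −116 in *Ivl* and at −48 in *Lor*. A further *Dmkn* window, 2 bases from the upstream one, held the same letters. The NF-κB letters of *Cnfn* began at −124 and are read on the opposite strand.

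Gene positions below are those of the deposited table, on GRCm38, and counts and FPKM were estimated over all transcripts of a gene. Of the secreted suprabasal proteins, both tested members rose, against 7.82% of all genes tested. *Dmkn*, *Rptn*, *Abca12*, *Elovl4* and *Klk7* passed the count filter only through their mutant samples, which favours a rise in the counts by role. *Sbsn* (gene ID 282619, chr7:30748971-30756134) encodes suprabasin, a protein secreted by differentiating keratinocytes. Its level was 2.95, 2.57 and 3.15 FPKM in controls, against 71.82, 40.99 and 53.91 FPKM in mutants. The groups were far apart, and the log2 fold change of its counts was 3.80 ± 0.20 (SE, n = 3 and 3), with an adjusted p of 1.1e-05 by edgeR. *Dmkn* (gene ID 73712, chr7:30763724-30781066) encodes dermokine, a second secreted protein of the suprabasal layers. Its level was 0.62, 0.32 and 0.81 FPKM in controls, against 146.56, 56.08 and 46.48 FPKM in mutants, so that it was nearly silent in every control and the highest level lay in mutant sample 1. The log2 fold change of *Dmkn* was 6.29 ± 0.54 (SE, adjusted p = 0.00011 by edgeR), from 45 counts over the control samples and 3541 over the mutant samples.

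The third gene of this group, *Krtdap*, which encodes keratinocyte differentiation-associated protein, stayed below the count filter with 0, 0 and 1 counts in controls, against 12, 2 and 11 in mutants. Its counts did not overlap between groups, and the ratio of their sums in CPM was 25, with a 95% interval of 4.09 to 1020 that covers counting error only. *Sbsn*, *Dmkn* and *Krtdap* lie next to each other between positions 30748971 and 30791083 of chromosome 7 (GRCm38). The nearest tested genes on either side, looked up after the values were seen, had log2 fold changes of 0.11 for *Tmem147* (adjusted p = 0.61 by edgeR) and −0.42 for *Cd22* (adjusted p = 0.47). Of the 50-base windows of *Sbsn* transcripts, 6.96% also occur in another gene, *Tmem147os*, whereas the other 34 members in the table shared at most 0.6% of their windows.

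**Figure D2:**
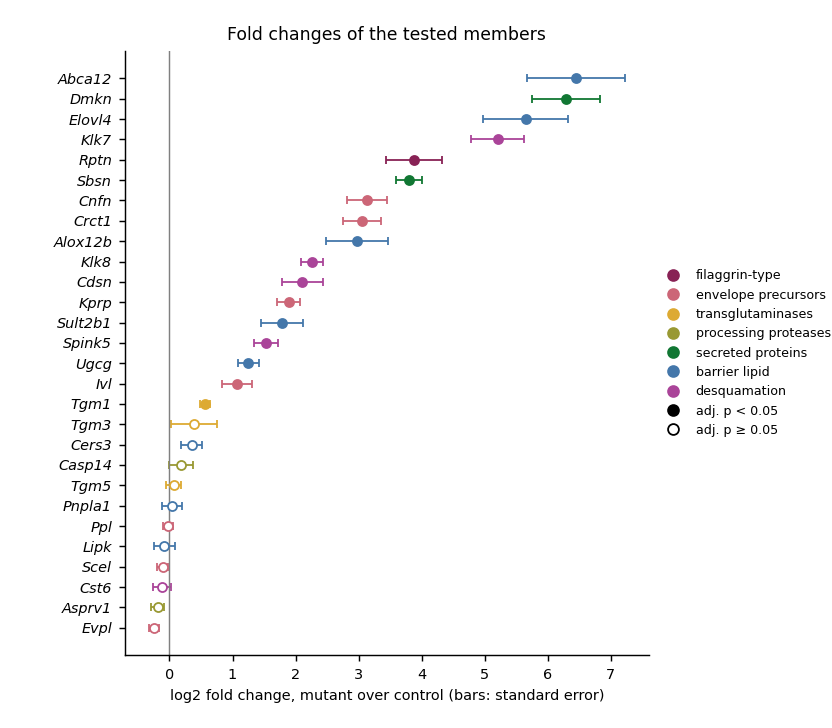
Log2 fold change of mutant over control for the 28 tested members, ordered by size and coloured by role. Bars are the standard error derived from the edgeR test, filled points have an adjusted p under 0.05 and open points do not. The 17 filled points lie between 0.57 (*Tgm1*) and 6.45 (*Abca12*), and the 11 open points lie between −0.25 (*Evpl*) and 0.39 (*Tgm3*).

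Among the envelope precursors and their scaffold, 4 of 7 tested genes rose, against 7.82% of all genes tested. *Cnfn* (gene ID 72383, chr7:25367616-25369724), which encodes cornifelin, an envelope component, was measured at 22.08, 18.53 and 50.28 FPKM in controls, against 287.03, 225.73 and 300.66 FPKM in mutants. It reached the highest mean level of all members that rose, 271 ± 40 FPKM (SD, n = 3), and control sample 3 stood above the other controls. The log2 fold change was 3.13 ± 0.32 (SE, adjusted p = 0.00033 by edgeR). *Crct1* (gene ID 74175, chr3:93014205-93015686), a cysteine-rich gene of the epidermal differentiation complex, had 1.76, 1.26 and 3.85 FPKM in controls, against 19.79, 18.92 and 19.12 FPKM in mutants. Its mutant samples were almost equal and again control sample 3 was the highest control, with a log2 fold change of 3.06 ± 0.30 (SE, adjusted p = 0.00025).

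*Kprp* (gene ID 433619, chr3:92823074-92827247) encodes the keratinocyte proline-rich protein. Its level was 3.96, 3.62 and 3.65 FPKM in controls, against 10.02, 14.23 and 17.47 FPKM in mutants, with no overlap and a log2 fold change of 1.89 ± 0.18 (SE, adjusted p = 0.00018 by edgeR). *Ivl* (gene ID 16447, chr3:92570899-92573790) encodes involucrin, an early scaffold protein of the envelope. It was measured at 6.42, 2.96 and 4.84 FPKM in controls, against 10.24, 8.13 and 11.58 FPKM in mutants. The highest control and the lowest mutant were close, and the log2 fold change of 1.07 ± 0.24 (SE, adjusted p = 0.017) did not pass the test without control sample 3 (1.10, adjusted p = 0.06).

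The plakins and sciellin, which form the scaffold and were among the most abundant members, did not pass the test. *Ppl* (periplakin) was measured at 445.48, 486.38 and 482.31 FPKM in controls, against 443.30, 477.19 and 475.30 FPKM in mutants, with a log2 fold change of −0.02 ± 0.075 (SE, adjusted p = 0.89 by edgeR). *Evpl* (envoplakin), its partner, was at 412.90, 456.18 and 454.98 FPKM in controls, against 348.75, 392.02 and 373.29 FPKM in mutants. Every mutant sample of *Evpl* lay below every control sample, and its log2 fold change of −0.25 ± 0.081 (SE) had an unadjusted p of 0.012 and an adjusted p of 0.071 by edgeR, against 0.025 by DESeq2. *Scel* had a log2 fold change of −0.11 ± 0.087 (SE, adjusted p = 0.45). *Lor*, which encodes loricrin, the most abundant envelope protein of the skin, was close to absent, with 0, 0 and 2 counts in controls, against 1, 2 and 6 in mutants. Its ratio of 4.49 had a counting interval of 0.93 to 42.7, so that no difference was detectable at this depth.

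Of the S100-fused filaggrin-type genes, which encode the large proteins of keratohyalin granules, *Rptn* (repetin, gene ID 20129, chr3:93393698-93399442) alone had enough counts to be tested, and it rose from a very low level. It had 1, 1 and 4 counts in controls, against 31, 34 and 29 in mutants. The ratio of the sums in CPM was 15.6, with a counting interval of 6.92 to 43.7, and the adjusted p was 0.00063 by edgeR. Even in the mutant the mean level was 0.383 ± 0.035 FPKM (SD, n = 3), the lowest among the members that rose. *Flg*, which encodes profilaggrin, had 2, 4 and 1 counts in controls, against 0, 12 and 9 in mutants, which overlap. Its ratio was 2.99, with a counting interval of 1.23 to 8.34 that leaves out the spread between samples. When fitted with no count filter, *Flg* had an adjusted p of 0.38 by edgeR. *Flg2* and *Hrnr* had 1 count each over the 6 samples. The proteases that act on filaggrin did not pass the test. *Casp14* (caspase 14) had 6.15 ± 0.45 FPKM in control and 6.93 ± 2.0 FPKM in mutant samples (SD, n = 3), with a log2 fold change of 0.19 ± 0.19 (SE, adjusted p = 0.57), and it did pass the test without mutant sample 1.

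*Asprv1*, which encodes the retroviral-like protease SASPase that cleaves filaggrin, was the most abundant of the 35 genes although *Flg* itself was at a few counts. It was measured at 3074.54, 3044.97 and 3503.55 FPKM in controls, against 2885.28, 3055.37 and 2515.81 FPKM in mutants. These values overlap, with a log2 fold change of −0.19 ± 0.10 (SE, adjusted p = 0.26 by edgeR).

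Of the transglutaminases, which cross-link the envelope, 1 of 3 rose, against 7.82% of all genes tested. *Tgm1* (gene ID 21816, chr14:55700009-55713921), the membrane-bound enzyme of keratinocytes, was measured at 28.26, 25.48 and 28.76 FPKM in controls, against 41.59, 41.22 and 39.96 FPKM in mutants. The samples of each group were close together and did not overlap, and the log2 fold change of 0.57 ± 0.079 (SE, adjusted p = 0.0017 by edgeR) was the smallest among members that rose. *Tgm5*, at 20.4 ± 1.7 FPKM in control and 21.4 ± 3.1 FPKM in mutant samples (SD, n = 3), and *Tgm3*, at 0.157 ± 0.032 and 0.213 ± 0.067 FPKM, did not pass the test (adjusted p = 0.75 and 0.53).

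Of the barrier lipid genes, 5 of 8 tested members rose, against 7.82% of all genes tested. The 2 with the largest changes were at a few counts in controls and passed the count filter only through their mutant samples. *Abca12* (gene ID 74591, chr1:71243090-71414910) encodes the transporter that loads glucosylceramide into lamellar granules. It had 2, 1 and 0 counts in controls, against 156, 38 and 101 in mutants, with mutant sample 1 the highest. The ratio of the sums in CPM was 98.2, with a counting interval of 33.3 to 479, and the adjusted p was 0.00076 by edgeR. *Elovl4* (gene ID 83603, chr9:83778692-83806305) encodes the elongase of very long chain fatty acids. Its counts were 3, 2 and 14 in controls, against 576, 169 and 232 in mutants, a ratio of 51.3 with a counting interval of 32.7 to 85.6 and an adjusted p of 0.00067. Of the 19 control counts 14 lay in control sample 3, and the fitted log2 fold change of 5.65 was 6.97 without that sample and 4.94 without mutant sample 1. On the log2 CPM scale the mutant samples of *Abca12* and *Elovl4* spanned 1.99 and 1.76, and the lowest of them lay 3.34 and 3.4 above the highest control.

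*Alox12b* (gene ID 11686, chr11:69157072-69169791), the lipoxygenase that oxidizes the linoleate of ceramides, had 0.43, 0.33 and 1.74 FPKM in controls, against 8.86, 4.33 and 6.73 FPKM in mutants. Control sample 3 was again the highest control, and the log2 fold change was 2.98 ± 0.49 (SE, adjusted p = 0.0042 by edgeR), or 4.13 without that sample. *Aloxe3*, which acts on the product of that enzyme and lies beside it on chromosome 11, stayed below the count filter with 2, 5 and 3 counts in controls, against 12, 9 and 12 in mutants. These did not overlap, and the ratio was 3.29 with a counting interval of 1.59 to 7.49 that leaves out the spread between samples. When fitted with no count filter, *Aloxe3* had an adjusted p of 0.064 by edgeR. It did not pass in any fit that left 1 sample out and tested it either. *Sult2b1* (gene ID 54200, chr7:45721169-45759555), the sulfotransferase that makes cholesterol sulfate, was measured at 1.25, 1.93 and 3.16 FPKM in controls, against 7.79, 4.97 and 9.37 FPKM in mutants (log2 fold change 1.79 ± 0.33, SE, adjusted p = 0.0068). *Ugcg* (gene ID 22234, chr4:59189170-59226415), the ceramide glucosyltransferase, was at 1.52, 1.38 and 1.18 FPKM in controls, against 3.86, 2.60 and 3.14 FPKM in mutants (log2 fold change 1.25 ± 0.17, SE, adjusted p = 0.0014). Neither gene overlapped between groups.

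*Cers3*, the ceramide synthase for very long chains, was already expressed in controls, at 21.40, 20.76 and 22.93 FPKM, and was at 36.80, 24.52 and 21.77 FPKM in mutants. Mutant sample 1 stood above the others and the groups overlapped, with a log2 fold change of 0.35 ± 0.17 (SE, adjusted p = 0.22 by edgeR). The acyltransferase gene *Pnpla1* (0.04 ± 0.16, adjusted p = 0.92) and the lipase gene *Lipk* (−0.08 ± 0.16, adjusted p = 0.80) did not pass the test on the log2 scale either.

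Of the genes of desquamation, 4 of 5 tested members rose, against 7.82% of all genes tested. They were *Klk7*, *Klk8*, *Cdsn* and *Spink5*, and *Klk7* passed the count filter only through its mutant samples. *Klk7* (gene ID 23993, chr7:43811294-43816387), the chymotrypsin-like kallikrein that cuts corneodesmosomes, had 4, 2 and 8 counts in controls, against 247, 124 and 162 in mutants, a ratio of 38.0 with a counting interval of 22.5 to 70.0 (adjusted p = 7.4e-05 by edgeR). *Klk8* (gene ID 259277, chr7:43796824-43803826), a trypsin-like kallikrein, was measured at 2.94, 2.45 and 2.80 FPKM in controls, against 13.20, 9.14 and 11.15 FPKM in mutants, with a log2 fold change of 2.26 ± 0.18 (SE, adjusted p = 7.4e-05). The groups of both genes were well apart. *Klk6* had 6, 2 and 1 counts in controls, against 1, 7 and 5 in mutants, which overlap.

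*Cdsn* (gene ID 386463, chr17:35543082-35557180) encodes corneodesmosin, the adhesion protein on which these proteases act. Its level was 13.71, 9.00 and 27.14 FPKM in controls, against 58.40, 73.75 and 84.90 FPKM in mutants. The controls spread widely, with sample 3 on top, but stayed below the mutants, and the log2 fold change was 2.11 ± 0.33 (SE, adjusted p = 0.0032 by edgeR). *Spink5*, which encodes the kallikrein inhibitor LEKTI, was at 18.59, 15 and 20.46 FPKM in controls, against 68.97, 43.68 and 43.29 FPKM in mutants, with no overlap (log2 fold change 1.53 ± 0.19, SE, adjusted p = 0.00093). *Cst6*, which encodes cystatin M/E, a cysteine protease inhibitor, did not pass the test (−0.12 ± 0.14 on the log2 scale, adjusted p = 0.60).

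*Klk8*, *Klk7* and *Klk6* lie together on chromosome 7. The nearest tested genes outside them, again looked up after the values were seen, were another kallikrein gene, *Klk9*, which rose (log2 fold change 1.71 ± 0.26, SE, adjusted p = 0.0024 by edgeR), and *2410002F23Rik*, which did not pass the test (0.07 ± 0.096, adjusted p = 0.67). An antisense gene, *2310002F09Rik*, overlaps 24.8% of the exon bases of *Klk8*, and since the strand of the libraries is not given in the sources used here, reads of the 2 genes could not be separated in that stretch. Overlap with another gene also covered 13.3% of the exon bases of *Pnpla1*, 8.13% of *Sult2b1*, 7.7% of *Sbsn* and 5.76% of *Tgm1*. Of the 9 members of the table on chromosome 7, 6 rose, whereas 7.82% of all genes tested were higher. The 8 members on chromosome 3 belong to the epidermal differentiation complex, and the 4 of them with enough counts all rose (*Ivl*, *Kprp*, *Crct1* and *Rptn*). *Rptn*, with 1, 1 and 4 counts in controls, passed the count filter only through its mutant samples, and *Flg*, *Flg2*, *Hrnr* and *Lor* were not tested. Neighbours of the chromosome 3 members, also looked up after the values were seen, rose in large part, against the same 7.82% of all genes tested. Of 14 other tested genes inside the same interval 9 rose, which were the 8 *Sprr* genes tested there and *Lce3a*, and 5 did not pass the test, among them *Crnn* (0.82, adjusted p = 0.30 by edgeR) and *Tchh* (−0.42, adjusted p = 0.31). The nearest tested genes on either side of the interval, *Pglyrp4* (0.90, adjusted p = 0.035) and *S100a11* (0.48, adjusted p = 0.029), rose as well. The interval runs from position 92080271 to 93465359. *Pglyrp4* ends at 90741517, so that it is not an adjacent gene, and *S100a11* starts at 93520496.

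The members covered a wide range of control levels. Mean control FPKM ranged from 0.00667 to 30.3 with a median of 2.29 for the 17 genes that rose, and from 0.157 to 3210 with a median of 20.4 for the 11 tested genes that did not. In the mutant the median of the 17 genes was 11.2 FPKM, against 21.4 FPKM for the other 11. The 7 genes below the count filter had control means of at most 0.123 FPKM. These ranges are descriptions, since low genes pass the filter more readily when they differ between groups.

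**Figure D3:**
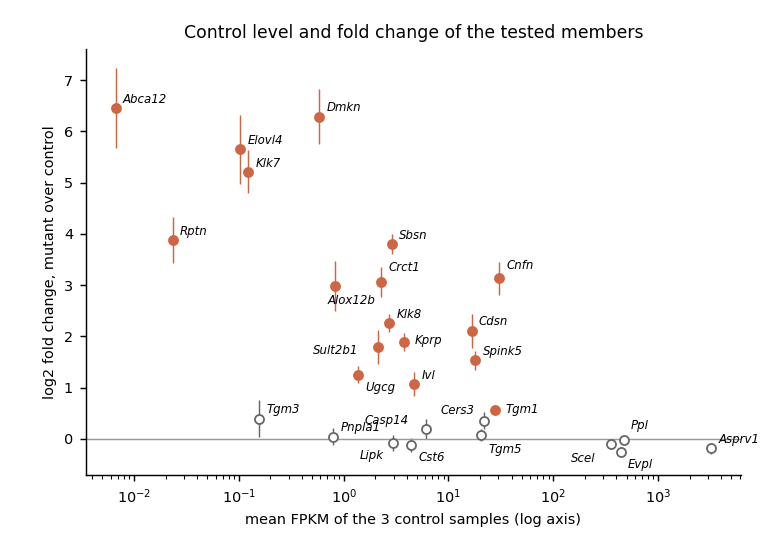
Mean FPKM of the 3 control samples on a log axis against the log2 fold change of mutant over control for the 28 tested members. Bars are the standard error of the fold change, orange points rose and open points did not; the 4 genes above 300 FPKM in the control (*Ppl*, *Evpl*, *Scel* and *Asprv1*) lie between −0.25 and −0.02, and the 4 genes with log2 fold changes above 5 lie below 1 FPKM.

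The samples of a group were not equal across the members. Among the 17 genes that rose, control sample 3 was the highest control in 10 and control sample 2 the lowest in 12, whereas control sample 3 was the highest control in 33.5% of all genes tested. Mutant sample 1 was the highest mutant in 11 of the 17 and mutant sample 2 the lowest in 10, whereas mutant sample 1 was the highest mutant in 37.6% of all genes. Shares over all genes were not computed for the lowest samples, so that those counts cannot be set against a background. The median difference of the 17 genes from the control mean was −0.07, −0.34 and 0.34 on the log2 scale in control samples 1 to 3, and 3.14, 2.69 and 3.0 in mutant samples 1 to 3. Without mutant sample 1 all 17 remained higher at an adjusted p under 0.05. The fitted fold of 8 of the 17 moved by over 1.5 times when 1 sample was left out, in most of them control sample 3. Besides *Elovl4* and *Alox12b*, described above, the log2 fold changes without control sample 3 were 4.81 for *Rptn*, 5.84 for *Klk7*, 3.73 for *Cnfn* and 3.67 for *Crct1*, each larger than with it. Without mutant sample 1 that of *Dmkn* was smaller, at 5.64, and without control sample 1 that of *Abca12* was 7.28.

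The FPKM values of 3 members changed by another factor than their counts. FPKM divides by a transcript length that RSEM weights by the estimated isoforms, and the length implied by the deposited counts and FPKM of *Dmkn* was 1559, 1283 and 1138 bases in controls, against 707, 716 and 802 bases in mutants. The 3 mutant samples thus had the shorter lengths, with means of 742 ± 52 against 1327 ± 214 bases (SD, n = 3; exact two-sided permutation p = 0.1, the smallest that 3 against 3 samples allow), and *Dmkn* was 142-fold higher in FPKM but 78.7-fold higher in CPM. Annotated protein-coding transcripts of *Dmkn* are 662 and 977 bases long or between 1926 and 2063 bases, and the internal start printed above lies downstream of the other. The length of *Sbsn* was 1758, 2375 and 1642 bases in controls, against 1267, 1315 and 1574 bases in mutants, again shorter in all 3 mutants, with a 19.2-fold difference in FPKM against 13.9-fold in CPM. *Klk8* went the other way, with 1090, 984 and 951 bases against 1173, 1158 and 1232 bases. In the other members with enough counts the ratio of the mean lengths was between 0.987 and 1.01. The control lengths of *Dmkn* rest on 19, 8 and 18 counts.

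**Figure D4:**
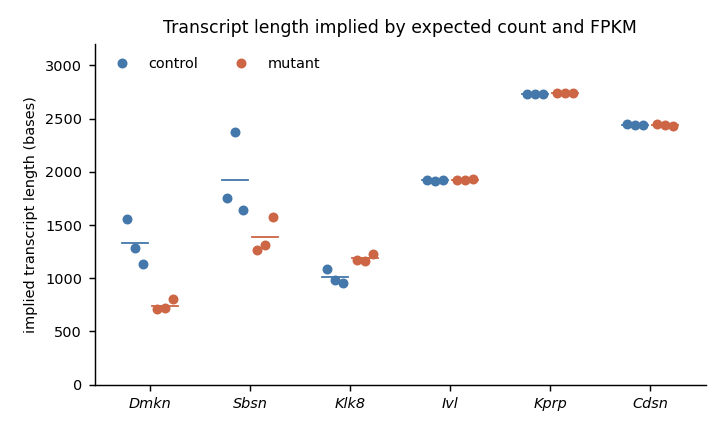
Transcript length in bases implied by the expected count, the FPKM and the total of each sample, for *Dmkn*, *Sbsn* and *Klk8* and for 3 members of constant length. Points are samples, 3 control in blue and 3 mutant in orange, and lines are group means; *Dmkn* and *Sbsn* are shorter in every mutant sample, *Klk8* is longer, and *Ivl*, *Kprp* and *Cdsn* stay level.

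Other genes of the same processes were taken from 4 lists, grouped by role. Beside their counts stand the shares over all 12667 genes tested, 7.82% higher and 5.42% lower. Of 6 tested late cornified envelope and related genes 1 rose, *Lce3a*, at 23.56, 17.20 and 20.65 FPKM in controls, against 26.80, 41.48 and 42.55 FPKM in mutants (log2 fold change 0.85 ± 0.18, SE, adjusted p = 0.015 by edgeR), and none fell. Of 16 tested genes of envelope protein modification and proteolysis 4 rose and none fell. They were the kallikreins *Klk10* (1.68 ± 0.25, adjusted p = 0.0021) and *Klk13* (adjusted p = 0.018), the channel-activating protease *Prss8* (0.33 ± 0.084, adjusted p = 0.031) and the cathepsin *Ctsl* (0.51 ± 0.096, adjusted p = 0.0082). *Klk13* was at 0.09, 0.07 and 0.00 FPKM in controls, against 9.89, 1.2 and 0.91 FPKM in mutants, so that most of its signal lay in mutant sample 1.

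Of 21 tested genes of a further barrier lipid list 3 rose and 2 fell, against 7.82% higher and 5.42% lower over all genes tested. Those that rose were *Degs1*, a dihydroceramide desaturase (log2 fold change 0.89 ± 0.11, SE, adjusted p = 0.0008 by edgeR), *Sdr9c7*, a dehydrogenase that acts after the lipoxygenases (0.83 ± 0.16, adjusted p = 0.0090), and *Nipal4* (1.64 ± 0.34, adjusted p = 0.013). Those that fell were *Elovl6* (−0.52 ± 0.10, adjusted p = 0.0096), which elongates shorter fatty acids, and *Plpp3* (−0.49 ± 0.13, adjusted p = 0.036), a lipid phosphatase. Of 25 tested transcription factors of epidermal differentiation 5 rose and 2 fell, to be read against the same shares. The largest of the rises were those of *Maf* (1.61 ± 0.43, adjusted p = 0.038) and *Ets1* (1.27 ± 0.21, adjusted p = 0.0039), and *Cebpb* (0.64 ± 0.086, adjusted p = 0.0013) and *Grhl3* (0.32 ± 0.083, adjusted p = 0.031) also rose, whereas *Pou2f3* (−0.76 ± 0.16, adjusted p = 0.014) and *Hopx* (−0.42 ± 0.097, adjusted p = 0.020) fell. *Maf* was below 0.5 FPKM in every sample. Of the 17 calls in these lists, 6 held, among them those of *Klk10*, *Sdr9c7*, *Degs1*, *Cebpb* and *Ets1*, without each sample in turn, and 11 were lost without at least 1 of the samples. The median log2 fold changes of the 4 lists were 0.83, 0.16, 0.12 and 0.04, in the order given.

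Markers of the labelled tissue and of other cell types were read beside these results. The 6 corneal markers summed to 45600 to 49700 FPKM in control and 41900 to 45700 FPKM in mutant samples. The corneal keratin *Krt12* was between 17005.01 and 21194.00 FPKM in every sample and did not pass the test (log2 fold change −0.15, adjusted p = 0.26 by edgeR). Nor did *Pax6* (−0.15, adjusted p = 0.19), *Tkt* (−0.30, adjusted p = 0.065) and *Krt5* (−0.07, adjusted p = 0.59). Every mutant sample of *Pax6* and *Tkt* lay below every control sample. The same held for *Krt12* in counts but not in FPKM, where the highest mutant (19244.82) lay above the lowest control (18871.36). Over all 12667 genes tested, the counts of 4141 did not overlap between groups, in one direction or the other. *Krt14* rose (log2 fold change 3.32 ± 0.18, SE, adjusted p = 1.1e-05). *Aldh3a1* fell (−0.25 ± 0.072, adjusted p = 0.047), a call that was lost without any 1 of the samples. The summed level of 4 epidermal keratins, the markers of skin, was 6.15 to 6.93 FPKM in controls, against 5.18 to 6.27 FPKM in mutants, with *Krt2* at no more than 3 counts in any sample and neither *Krt1* (−0.10, adjusted p = 0.73) nor *Krt10* (−0.22, adjusted p = 0.33) past the test. The 5 conjunctival markers summed to 1360 to 1600 FPKM in control and 1080 to 1190 FPKM in mutant samples, with *Krt13* (−0.45 ± 0.097, adjusted p = 0.015, not past the test without control sample 1 or 3) and *Krt8* (−1.43 ± 0.29, adjusted p = 0.010) lower and *Muc5ac* at no more than 3 counts.

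The 6 stromal markers summed to 0.14 to 0.24 FPKM in controls, against 0.70 to 3.32 FPKM in mutants, with *Dcn* higher (4.17 ± 0.72 on the log2 scale, adjusted p = 0.0051 by edgeR) and the keratocyte gene *Kera* at no more than 3 counts in any sample. The stromal sum was highest in mutant sample 1, as were 11 of the 17 members that rose, and its part in the results was not tested. The 5 leukocyte markers summed to 17.4 to 22.1 FPKM in control and 22.5 to 26.1 FPKM in mutant samples, nearly all of it from *Cd68*, which did not pass the test (adjusted p = 0.22). *Lyz2*, which was below the count filter, had 0, 0 and 1 counts in controls, against 23.7, 13 and 3.79 in mutants, and like the stromal sum was highest in mutant sample 1, and its part in the results was not tested. The 2 vessel markers, both below the count filter, summed to 0.03 to 0.09 FPKM in controls, against 0.13 to 0.23 FPKM in mutants. *Pecam1* had 2, 2 and 5 counts in controls, against 8, 7 and 14 in mutants, which do not overlap, and its part in the results was not tested. The markers of hair follicle (at most 0.72 FPKM) and melanocytes (at most 1.36 FPKM) were low in every sample.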

How the data were processed

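Corneal epithelial RNA of 3 control and 3 mutant samples was sequenced as single-end 50-base reads after removal of ribosomal RNA. SOAPnuke served to filter reads and Bowtie2 (2.2.5) to align them, and the authors deposited expected counts and FPKM values estimated per gene by RSEM (1.2.12) for each sample. The submitters' notes name mm9, whereas the coordinates of the deposited table are those of GRCm38. Neither the deposited log2 fold changes with their p-values and q-values, made by the authors with DEGseq, nor the mean columns were used, and 0 per-sample columns could not be assigned. The notes and the methods name different library kits and instruments.

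Expected counts were rounded and tested with edgeR (4.0.16) under R (4.3.3), by TMM scaling, filterByExpr (minimum count 10, minimum total 15), a quasi-likelihood test and Benjamini-Hochberg adjustment over all genes tested. The standard error (SE) of a log2 fold change was derived as its absolute value divided by the square root of the F statistic of that test. The procedure was tested on simulated data. The fits were repeated with DESeq2 (1.42.0), with upper-quartile scaling, without the count filter, with a minimum of 10 counts in every sample, with limma (3.58.1) on log2(FPKM + 1) and log2(FPKM + 0.1), with a replicate block, and without each sample in turn. Members that passed the adjusted p of 0.05 are given with values in every sample, the other tested members with levels or fold changes, and those below the filter with counts. Members and lists were chosen with earlier results of these data known. Counting intervals are exact at 95% and cover counting error only. The methods describe the samples as independent biological samples, and whether mice were pooled is not given in the sources used here. Shared sequence was counted as 50-base windows of annotated transcripts found in other genes, and promoter windows came from RefSeq. Protein sequences were not used here, and 1 gene of the lists is not reported here.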

Additional observations from a re-analysis of the deposited data

How the results depend on the processing

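The 17 members that rose kept their direction in all 216 combinations of member and alternative that could be fitted, and 215 of these stayed under an adjusted p of 0.05. The exception was *Ivl* without control sample 3 (log2 fold change 1.10, adjusted p = 0.06). The count of members higher was 12 with at least 10 counts in every sample, where *Rptn*, *Dmkn*, *Abca12*, *Elovl4* and *Klk7* were no longer tested, and 16 to 18 when 1 sample was left out. *Krtdap* was added without mutant sample 2 (adjusted p = 0.013 by edgeR) and with no count filter (adjusted p = 0.027). It was also tested without control sample 1, 2 or 3 and did not pass there (adjusted p = 0.099, 0.12 and 0.081). The count of members lower was 1 by DESeq2, with *Evpl* (adjusted p = 0.025), and 0 under the other alternatives. The stricter count of differentially expressed members, 11, depended on the processing: it was 15 by DESeq2, 14 with no count filter, 10 with upper-quartile scaling, 9 and 7 by limma on log2 FPKM with pseudocounts of 0.1 and 1, and 6 for genes with 10 or more counts in every sample. When 1 sample was left out it ranged from 1 to 10, with 3 without control sample 1, 1 without control sample 2 and 6 without control sample 3, where fewer samples enter the test. The median log2 fold change was 1.67 with no count filter, 0.82 for genes of 10 or more counts throughout and 0.73 with limma on log2(FPKM + 1), where the pseudocount shrinks the change of low genes, and ranged from 1.17 to 1.72 when 1 sample was left out.

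The replicate numbers are shared by the groups, and whether they pair the samples is not given in the sources used here. Over all genes tested, deviations from the group means of samples with the same number correlated at 0.019, 0.048 and −0.046. With 3 samples per group these values cannot show whether the samples were paired. With the replicate block 17 members were higher, 11 were differentially expressed and the median was 1.37, with *Cdsn* among the 11 and *Rptn* not. With 3 samples per group and few counts for *Flg*, *Flg2*, *Hrnr*, *Lor*, *Krtdap*, *Aloxe3* and *Klk6*, differences in these genes could not be detected unless large.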
